A study of Mus musculus with 2 samples.

Results

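The miR-26 family of the mouse is carried by the hairpin genes Mir26a-1, Mir26a-2 and Mir26b, which are 3 of the 2202 miRNA genes in the count tables. They were chosen by gene name in GENCODE M21, from the gene identifiers of the tables. Total RNA from heart of male adult 5xFAD/CAST animals, 8 to 10 months old, was profiled by microRNA-seq, with a labelled size range below 30. There was a single group of 2 libraries, biological replicates 1 and 2, and so no comparison between conditions. 5xFAD is a transgenic line used as a model of amyloid deposition in brain, with transgenes under the neuronal Thy1 promoter, and CAST is a wild-derived inbred strain. The labels do not state whether these animals carried the transgenes. Both libraries have the same donor entry and different biosample entries, and nothing says that they came from separate animals. Spreads and p-values between them thus describe how these libraries differ, and that difference may be technical.

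A miRNA is cut from a hairpin precursor, which has a 5p and a 3p arm, and one mature arm usually accumulates while the other is largely degraded. It finds its targets through the seed, bases 2 to 8 from its 5′ end. The miR-26 hairpins lie in introns of Ctdspl, Ctdsp2 and Ctdsp1, genes of small phosphatases that act on the C-terminal domain of RNA polymerase II. In many cell types miR-26 restrains proliferation, with the histone methyltransferase gene Ezh2 among its known targets, and in heart it is known for repressing the potassium channel gene Kcnj2.

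The mature arms are shown here because they decide which reads can be told apart. Sequences are those of RefSeq on GRCm38.p6 (mm10), where all 3 hairpins were found, with the seed in capitals.
miR-26a-5p of Mir26a-1 and of Mir26a-2: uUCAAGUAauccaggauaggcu
miR-26b-5p of Mir26b: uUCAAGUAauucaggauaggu
miR-26a-1-3p of Mir26a-1: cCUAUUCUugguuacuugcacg
miR-26a-2-3p of Mir26a-2: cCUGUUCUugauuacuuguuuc
miR-26b-3p of Mir26b: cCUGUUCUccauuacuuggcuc
The 5p arms carried a single seed, and 0 other mature miRNAs of the RefSeq table had it. Counted from the 5′ end of miR-26a-5p, miR-26b-5p differed by C11U and C21U and was 21 nt long, against 22 nt for miR-26a-5p. The 3p arms fell into 2 seed groups, with miR-26a-2-3p and miR-26b-3p in the same group and miR-26a-1-3p apart from them by G4A, counted from the 5′ end of miR-26a-2-3p. Elsewhere in the table the seed of miR-26a-2-3p and miR-26b-3p occurred in 2 other mature miRNAs, of Mir6932 and Mir7039. Mir6932 had 0 sense counts in both libraries, and Mir7039 had 1 in replicate 1 and 0 in replicate 2.

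The hairpins follow in full, with both mature arms in capitals, to show what surrounds the arms.
Mir26a-1: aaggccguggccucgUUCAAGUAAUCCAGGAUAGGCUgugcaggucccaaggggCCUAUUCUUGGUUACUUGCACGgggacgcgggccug
Mir26a-2: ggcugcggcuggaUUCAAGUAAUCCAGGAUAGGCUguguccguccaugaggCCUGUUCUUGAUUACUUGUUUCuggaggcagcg
Mir26b: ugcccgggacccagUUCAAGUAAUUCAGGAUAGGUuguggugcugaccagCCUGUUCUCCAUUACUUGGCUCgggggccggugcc
The whole hairpins, arms included, were aligned globally. Mir26a-1 and Mir26a-2 were identical at 66 of 91 columns and Mir26a-1 and Mir26b at 64 of 93. Mir26a-2 and Mir26b were identical at 62 of 92. The minimum free energy predicted by RNAfold was -49.4 kcal/mol for Mir26a-1, -44.5 kcal/mol for Mir26a-2 and -43.5 kcal/mol for Mir26b, and in each predicted fold 6 of the 7 seed bases of the 5p arm were paired.

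On mm10, Mir26a-1 (ENSMUSG00000065513.1) lies on chromosome 9 from 119031796 to 119031885, Mir26a-2 (ENSMUSG00000065430.1) on chromosome 10 from 126995530 to 126995613, and Mir26b (ENSMUSG00000065468.1) on chromosome 1 from 74394310 to 74394394. Each is annotated on the plus strand, the strand of its host. In the longest protein-coding transcript of each host, Mir26a-1 lies in intron 5 of 7 of Ctdspl, 3283 nt long, Mir26a-2 in intron 5 of 7 of Ctdsp2, 1946 nt long, and Mir26b in intron 4 of 6 of Ctdsp1, 564 nt long. Mir26a-2 lies 241 nt before the next exon and Mir26b 245 nt before it, against 1650 nt for Mir26a-1. In 2 shorter annotated transcripts of Ctdsp2 the first exon starts at the last base of the Mir26a-2 hairpin, so that hairpin is intronic apart from this base. Other genes annotated over the hairpins were their hosts alone.

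Mir26a-1 and Mir26a-2 shared a stretch of 25 nt, which starts at the first base of the 5p arm and runs 3 nt past its end. A read that starts with the 5p arm of either copy therefore had to be at least 26 nt long to differ from the other copy. In Mir26b, a read from the start of the 5p arm differed from every other RefSeq hairpin after 11 nt, and the 3p arms differed after 8 nt in Mir26a-1, 11 nt in Mir26a-2 and 12 nt in Mir26b. Of the 22-nt windows of a hairpin, 4 of 69 in Mir26a-1, 4 of 63 in Mir26a-2 and 0 of 64 in Mir26b occurred in another hairpin. Those 4 windows include the whole mature miR-26a-5p. Among 141767 GENCODE M21 transcripts, exact miR-26a-5p was found in 2 genes, Mir26a-1 and Mir26a-2, and each of the other 4 arms in its own hairpin gene alone. The deposited tables gave reads that aligned to several places to no gene. Mature miR-26a-5p is thus not counted in either copy unless a read runs past the shared stretch at either end. A 22-nt window that starts 1 base before the arm, at position 15 in Mir26a-1 or 13 in Mir26a-2, occurred in no other hairpin. Allowing mismatches, miR-26a-5p lies 2 substitutions from the Mir26b hairpin, and whether such reads were placed at Mir26b was not analysed here, since the mismatch allowance is unknown. The counts do not tell the arms of a hairpin apart.

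**Figure D1:**
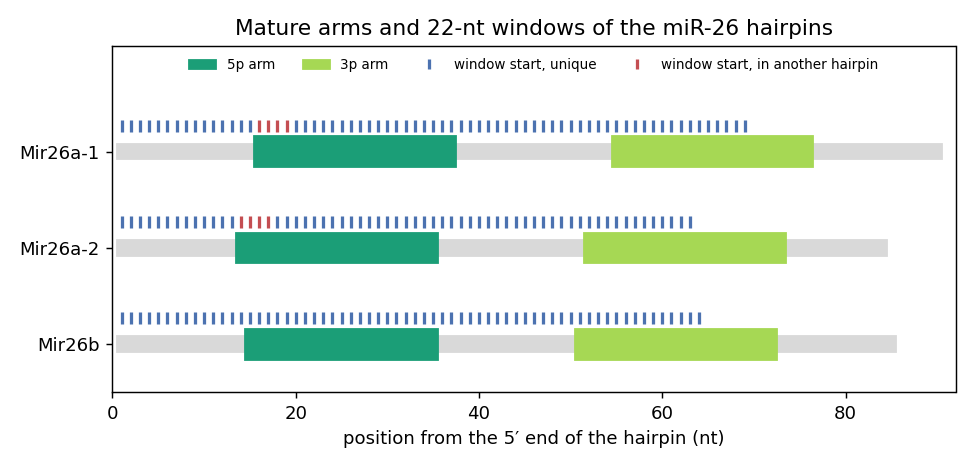
Position from the 5′ end of each miR-26 hairpin (x axis, nt), with the 5p and 3p arms as boxes and a tick at the first base of every 22-nt window. The 4 windows that occur in another hairpin start at the 5p arm in Mir26a-1 and in Mir26a-2, and Mir26b has 0 of them.

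Mir26b held nearly all counted miR-26 reads and ranked 14 of 2202 genes in both libraries. It had 108473 sense counts in replicate 1 and 115791 in replicate 2. In CPM, counts scaled by the sense total of their library, replicate 1 had 27890.3 (95% Clopper-Pearson interval 27727 to 28054) and replicate 2 had 22889.9 (22759.7 to 23021), which gave 25390.1 ± 3536 CPM on average (SD, n = 2). Mir26b was thus close in both libraries, and its share of all miR-26 counts was 99.9% (95% Clopper-Pearson interval 99.8 to 99.9) in replicate 1 and 98.6% (98.6 to 98.7) in replicate 2. No molecular identifiers are named for these PCR libraries, so this and every other interval covers counting error only.

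Mir26a-2 was counted at a low level in replicate 1 and a moderate one in replicate 2. It had 131 sense counts, or 33.7 CPM (28.2 to 40.0), in replicate 1 and 1559 counts, or 308 CPM (293 to 324), in replicate 2. It ranked 182 in replicate 1 and 88 in replicate 2, and the mean of 171 ± 194 CPM (SD, n = 2) has an SD above the mean. Replicate 2 thus decides the mean level, which is 308 CPM without replicate 1.

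Mir26a-1, the copy in Ctdspl, was counted least. It had 9 sense counts, or 2.31 CPM (1.06 to 4.39), in replicate 1 and 30 counts, or 5.93 CPM (4.00 to 8.47), in replicate 2, a mean of 4.12 ± 2.56 CPM (SD, n = 2). The lower bounds lay above the 0.771 CPM and 0.593 CPM that 0 counts allow in these libraries, and its 9 counts in replicate 1 fell short of the 10 counts in both libraries asked for detection. Mir26a-2 and Mir26b were 2 of the 325 genes that met this minimum.

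**Figure D2:**
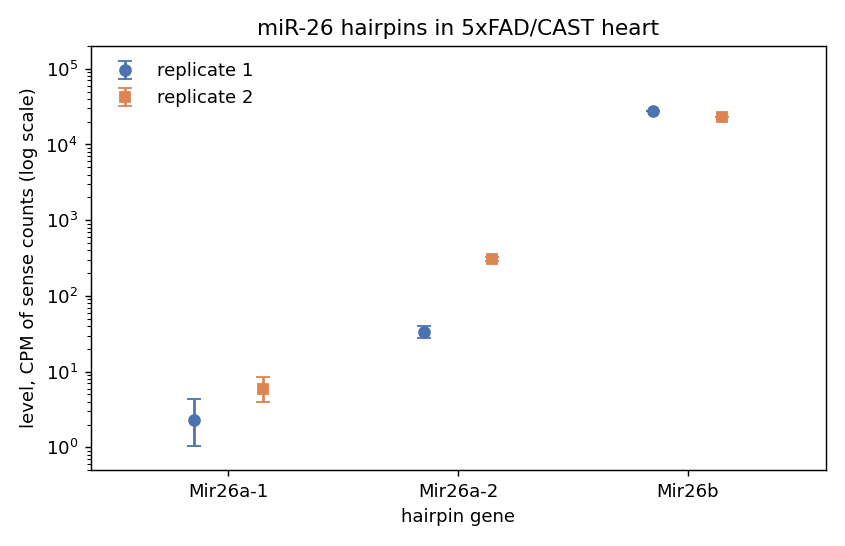
Level of each miR-26 hairpin gene (x axis) in CPM of sense counts on a log scale (y axis). Circles are replicate 1, squares replicate 2 and bars 95% Clopper-Pearson intervals, which for Mir26b are smaller than the symbols. Mir26a-1 sits between 2.31 and 5.93 CPM, Mir26a-2 between 33.7 and 308 CPM, and Mir26b between 22889.9 and 27890.3 CPM.

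The order Mir26b, Mir26a-2, Mir26a-1 was the same in both libraries, and the counting intervals of these genes did not overlap within a library. The values of the genes did not overlap across libraries either, with 33.7 CPM as the lowest of Mir26a-2 and 5.93 CPM as the highest of Mir26a-1. The hairpins are 90 nt (Mir26a-1), 84 nt (Mir26a-2) and 85 nt (Mir26b) long, so scaling by length changes little. Per nt of hairpin, Mir26b stood at 328 CPM in replicate 1 and 269 CPM in replicate 2, Mir26a-2 at 0.401 and 3.67 CPM, and Mir26a-1 at 0.0257 and 0.0659 CPM. Opposite-strand counts were 0 for all 3 genes in both libraries, and the count column that ignores strand held the same counts for them as the sense column.

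Together the 3 hairpins took 2.79% of all sense counts of replicate 1, with a 95% Clopper-Pearson interval of 2.78 to 2.81, and 2.32% of those of replicate 2, with an interval of 2.31 to 2.33. Their mean share was 2.56% ± 0.334 (SD, n = 2). Counts per hairpin do not rank mature miRNAs, since 42.3% of reads in replicate 1 and 46.8% in replicate 2 had aligned to several places and went to no gene. How many of those were miR-26a-5p was not analysed here. In bulk tissue, fewer cells of a type and less RNA per cell cannot be told apart.

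Within a library, Mir26b counts stood to the summed counts of the Mir26a copies at 775 to 1 in replicate 1 (95% exact interval 657 to 921) and 72.9 to 1 in replicate 2 (69.3 to 76.6). The Mir26a copies together had 140 counts in replicate 1, 131 of them from Mir26a-2, and 1589 in replicate 2, 1559 of them from Mir26a-2. These counts leave out miR-26a-5p reads that aligned to both copies, so the ratio above is not that of mature miR-26b to miR-26a. Mir26a-2 stood to Mir26a-1 at 14.6 to 1 in replicate 1 (7.44 to 32.5) and 52.0 to 1 in replicate 2 (36.3 to 77.3).

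Between the libraries, all 3 hairpins passed a two-sided exact binomial test at TMM-scaled library sizes, Benjamini-Hochberg adjusted over 412 tested genes. The background was high: 187 of the 412 genes, 45.4%, passed it, 22.6% higher and 22.8% lower in replicate 1. Of the 134 genes with a mean of at least 100 CPM, 115 passed. A pass alone therefore does not set a hairpin apart, and the size of its difference is read against that of the other genes.

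Mir26a-2 differed by more than almost every other gene. It was 9.98-fold lower in replicate 1 (95% exact interval 8.34 to 12.0, exact binomial adjusted p = 1.12e-257). On the log2 scale, with 1 CPM added to both levels, the ratio of replicate 1 to replicate 2 was -3.28. This was the 2nd largest absolute log2 ratio of the 412 tested genes, whereas the median absolute log2 ratio of all tested genes was 0.39.

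Mir26a-1 was also lower in replicate 1, by 2.79-fold with a wide interval of 1.29 to 6.69 (exact binomial adjusted p = 0.0138). Its log2 ratio of -1.16 ranked 38 of 412 by size. At 9 and 30 counts this hairpin is close to the limit of what these libraries can show.

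Mir26b was 1.12-fold higher in replicate 1 (1.11 to 1.13, exact binomial adjusted p = 1.38e-150). Its log2 ratio of 0.16 ranked 322 of 412 by size, below the median absolute log2 ratio of all tested genes. By size, Mir26b was hence among the genes that differed less between the libraries.

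**Figure D3:**
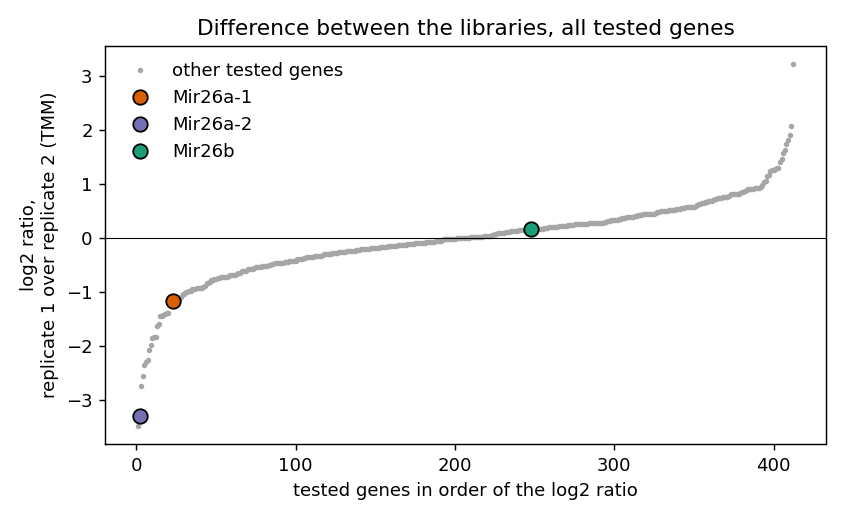
Log2 ratio of replicate 1 over replicate 2 after TMM scaling (y axis) for the 412 tested genes in order of that ratio (x axis). Mir26a-2 lies near the low end at -3.28, Mir26a-1 at -1.16 and Mir26b near 0 at 0.16.

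The hairpins did not move together. The ratio of replicate 2 to replicate 1 was 11.1 times as large for Mir26a-2 as for Mir26b (95% exact conditional interval 9.32 to 13.4). It was 3.12 times as large for Mir26a-1 as for Mir26b (1.45 to 7.48), and 3.57 times as large for Mir26a-2 as for Mir26a-1 (1.46 to 7.91). These intervals do not include 1, do not depend on the scaling of the libraries and cover counting error only.

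**Figure D4:**
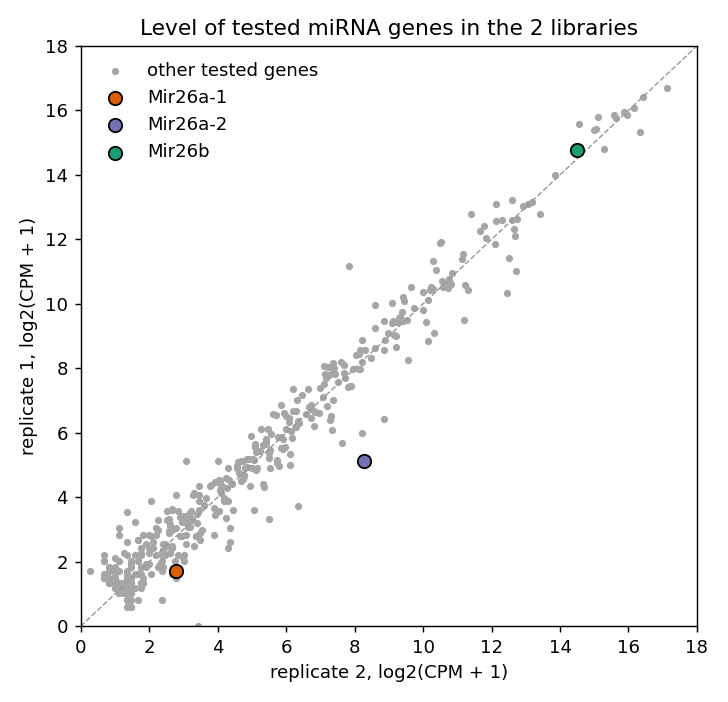
Level of the 412 tested genes in replicate 2 (x axis) and replicate 1 (y axis) as log2(CPM + 1), with the dashed line at equal levels. Mir26b lies near the line, and Mir26a-2 lies below it, at 33.7 CPM (replicate 1) and 308 CPM (replicate 2).

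Heart markers were present in both libraries. Mir208a, in an intron of the myosin gene Myh6, stood at 2685 ± 1697 CPM (SD, n = 2), at 3885 CPM (replicate 1) and 1485 CPM (replicate 2). Mir499, in an intron of Myh7b, stood at 4310.1 ± 2232 CPM (SD, n = 2), at 2732 CPM (replicate 1) and 5888 CPM (replicate 2). Mir208b, in an intron of Myh7, stood at 115 CPM (replicate 1) and 56.5 CPM (replicate 2). The cardiomyocyte genes thus went both ways, Mir499 in the direction of Mir26a-2 and the others against it, and their sum was 6731 CPM (replicate 1) and 7430.1 CPM (replicate 2). Of the other lists, some differed and some were close. The pluripotent list, 5 Mir302 and Mir367 genes of which 4 were detected and Mir367 was at 0 in both libraries, summed to 209.8 CPM (replicate 1) and 1032 CPM (replicate 2). The epithelial list, 7 genes of which 5 were detected, summed to 184 CPM (replicate 1) and 347 CPM (replicate 2). The leukocyte list of 3 genes, all detected, stood at 1957 and 1789 CPM, and the erythroid list of 2 genes, both detected, at 319.9 and 217 CPM. In the same order, the endothelial list of 1 gene stood at 87114.6 and 87787.3 CPM and the hepatocyte list of 1 gene at 28.8 and 27.1 CPM. Skeletal muscle, also 1 gene, stood at 14.9 and 11.7 CPM. The neuronal list of 3 genes, 1 of them detected, stood at 13.9 and 17.6 CPM. The part of other cell types in the difference of Mir26a-2 was not tested.

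For each hairpin the 3 genes with the most similar pair of levels were sought, by Euclidean distance of log2(CPM + 1) over the 2 libraries. Mir26a-2 lay nearest to Mir302d and Mir302b, at distances of 0.86 and 0.87, followed by Mir379 at 1.34. Mir302b had 62.2 CPM in replicate 1 and 295 CPM in replicate 2, and Mir302d had 50.4 and 196 CPM, so both were lower in replicate 1 as Mir26a-2 was. Mir26a-1 lay nearest to Mir200a, Mir376a and Mir488, at distances of 0.17, 0.24 and 0.30, and Mir26b to Mir139, Mir149 and Mir143, at distances of 0.79, 0.81 and 0.81. Over 2 libraries such a likeness is a description of levels alone.

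Mir26a-1 and Mir26a-2 belong to a larger set of numbered hairpin copies with a mature arm in common. By symbol and RefSeq sequence 80 other genes of the tables were such copies. Of these, 52 had an arm of their own beside the shared one, as the Mir26a copies do, and 32 of the 52 were detected. Of the 28 with no arm of their own, 1 was detected. These are 61.5% and 3.57%, beside 14.8% of all 2202 genes and 28.5% of the 1018 genes with a RefSeq mature arm. Many of the 28 have a single mature arm in RefSeq, so the groups also differ in annotation. One such gene, Mir3074-1, had 41 counts in replicate 1 and 8 in replicate 2. The part of the shared arm in this was not tested. Among the 80 genes 41 were tested, of which 25 had a log2 ratio above 0 and 16 below 0. The test called 12 of the 41 higher and 9 lower in replicate 1, beside 22.6% and 22.8% of all tested genes, with a median log2 ratio of 0.13 against 0.0038 over all tested genes, and -3.28 and -1.16 for Mir26a-2 and Mir26a-1.

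In 14 other pairs of copies both were detected. The higher copy exceeded the lower by a median of 2.50 to 1, from 1.21 to 1 for Mir194-1 over Mir194-2 to 92.8 to 1 for Mir181b-2 over Mir181b-1, as geometric means of the libraries. The Mir26a copies stood at 27.5 to 1, with 2 of the 14 pairs more unequal by that mean. In replicate 1 alone 4 pairs were more unequal than the Mir26a copies, and in replicate 2 alone 1 was. Their ratio differed between the libraries by 1.84 on the log2 scale, against a median of 0.17 in the 14 pairs, of which 0 differed by more. Mir26a-1, with 9 counts in replicate 1, lies below the minimum used for the other pairs. Pairs with a copy below that minimum were left out of the 14, and some of them changed by more. Mir7-1 and Mir7-2 had 49 and 8 counts in replicate 1 and 56 and 1 in replicate 2, a larger change than in Mir26a. Mir103-1 and Mir103-2, with 8 and 42 counts in replicate 1 and 5 and 24 in replicate 2, changed less. The 0 of 14 thus does not set the Mir26a copies apart from pairs with a copy of low counts.

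**Figure D5:**
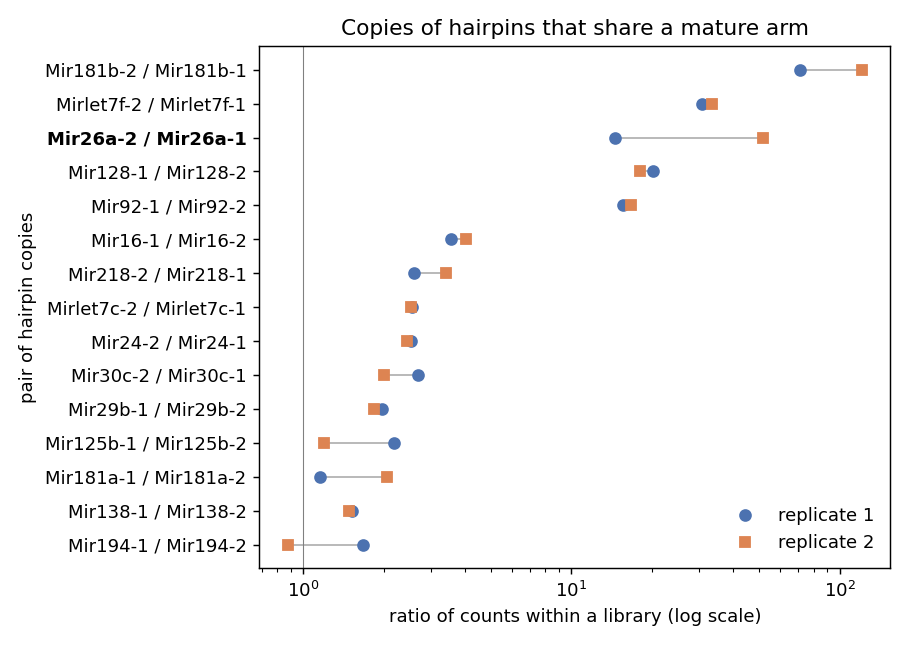
Ratio of counts of hairpin copies that share a mature arm, within replicate 1 (circles) and replicate 2 (squares), on a log scale (x axis), for 15 pairs (y axis). The Mir26a pair, in bold, stands at 14.6 in replicate 1 and 52.0 in replicate 2. This is the widest gap of the 15 pairs, with 9 counts of Mir26a-1 in replicate 1.

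Intronic families in paralogous hosts gave a second setting for the family. The list held 12 other genes in 5 families, and 12 were tested, of which 9 had a log2 ratio above 0 and 3 below 0. The test called 5 of them higher and 3 lower in replicate 1, beside 22.6% and 22.8% of all tested genes, with a median log2 ratio of 0.45 against 0.0038 over all tested genes. The most alike arrangement, picked after the values were seen, was that of Mir103-1, Mir103-2 and Mir107 in introns of the pantothenate kinase genes, where the numbered copies also share a mature arm. Mir107, which shares neither arm with them, stood at 707 ± 84.4 CPM and held 98.7% of the family's summed mean CPM. Mir103-2 stood at 7.77 ± 4.28 CPM and Mir103-1 at 1.52 ± 0.756 CPM (SD, n = 2 each). In the miR-26 family Mir26b held 99.3% by the same measure. In the other 4 families the leading gene by mean CPM held 95.04% (Mir128-1), 74.0% (Mir218-2), 64.2% (Mir152) and 60.9% (Mir499). Mir499 led in replicate 2 alone, at 5888 CPM beside 1485 CPM for Mir208a. In replicate 1 they stood at 2732 and 3885 CPM. Counts of the Mir26a, Mir103, Mir128 and Mir218 copies leave out reads of the shared arm that aligned to both copies. The shares are thus of counted reads and do not rank mature miRNAs.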

How the data were processed

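The authors deposited raw read counts per miRNA gene for each of 2 heart libraries of a single group, in 3 count columns (strand ignored, and each strand) of 2202 genes. Genome build mm10 and annotation GENCODE M21 are given per the file headers deposited beside the counts. Aligner, mismatch allowance and read filters: not given in the sources used here. Summary lines name no gene, held 64.1% of reads in replicate 1 and 64.4% in replicate 2, and stayed out of library sizes and tests. Sense counts summed to 3889280 and 5058613 of 10824381 and 14212392 reads.

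CPM scales a sense count by its library's sense total. Genes with a sum of at least 10 counts were tested with a two-sided exact binomial test (scipy 1.17.1) at effective sizes from TMM in edgeR 4.0.16, with Benjamini-Hochberg adjustment and a threshold of 0.05. With a single group, edgeR's quasi-likelihood test could not be fitted. The code was tested on simulated data. Other settings were total counts, DESeq2 1.42.0 size factors, other count filters, the column that ignores strand, all reads as the total and a pseudocount of 0.1 CPM. Folds were computed with no pseudocount. Sequences are RefSeq's on GRCm38.p6, and folds of RNA were predicted with RNAfold 2.7.2. Uniqueness was checked among 1005 RefSeq hairpins on both strands and among GENCODE M21 transcripts, not in the genome. The members and lists were chosen with earlier results of these data known. Genes named are the miR-26 hairpins, the 3 genes nearest to each, the most and least unequal pair of copies, examples of low-count copies, and heart markers.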

Additional observations from a re-analysis of the deposited data

How the results depend on the processing

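All log2 ratios of the miR-26 hairpins kept their direction and their side of the threshold under every other setting in which they were tested. Mir26a-2 ranged from -3.31 to -3.16, Mir26a-1 from -1.44 to -1.06 with adjusted p of 0.00939 to 0.0237, and Mir26b from 0.13 to 0.29. With a sum of at least 50 counts Mir26a-1 was not tested. Between 172 and 199 genes were called. Total-count scaling, which shifts the log2 ratios of abundant genes by 0.13, gave 120 higher and 79 lower in replicate 1, against 93 and 94 with TMM. Levels depended on the total. In the column that ignores strand Mir26b averaged 33190.3 CPM and the family held 3.34% of counts. With all reads as the total, Mir26b averaged 9084 CPM, Mir26a-1 averaged 1.47 CPM and the family held 0.915%. These shifts follow from smaller and larger totals over the same counts. Leaving out each replicate in turn gave family shares of 2.32% to 2.79%, and 33.7 to 308 CPM for Mir26a-2. No paired analysis was possible because there is a single group. Mir26a-1 is limited by depth, at 9 and 30 counts, and the 5p arm shared by the Mir26a copies by the reads given to no gene.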

Other observations

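Ctdsp2 holds another annotated miRNA gene, Mir546, 2827 nt beyond Mir26a-2 on the same strand. It had 4 sense counts in replicate 1 and 0 in replicate 2, where a count of 0 allows up to 0.593 CPM. The nearest other miRNA gene in the tables lay 187690 nt from Mir26b and 1032366 nt from Mir26a-1, and both of those neighbours had 0 counts in each library.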
